A study of Mus musculus with 10 samples.

Results

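The genes described here are 10 genes of platelet activation, chosen by symbol as thrombin, collagen and CLEC-2 receptors and the proteins that carry their signals, of 23240 genes in the expression table. All 10 were found. The receptors were F2r, F2rl2, Clec1b, Treml1 and Gp6, and the signalling proteins were Lat, Plek, Rasgrp2, Prkcq and Fermt3. RNA had been sequenced from sorted progenitors of mouse bone marrow, in 10 libraries that form 5 groups of 2, to compare marrow with and without the transcription factor Runx1. Levels are RPKM, which scales a gene's reads to its length and to the depth of sequencing.

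Every group carried the transgene Tg(vav-Cre), in which the vav promoter drives the Cre recombinase in blood cells. The deleted groups were Runx1fl/fl-Tg(vav-Cre), labelled Runx1Δ/Δ, and the control groups were Runx1+/+-Tg(vav-Cre), labelled Runx1wt/wt. The gate shared by all groups was lin- sca- kit+ CD41- CD105-. XMP (CD16/32+ CD150+) were sorted from Runx1Δ/Δ marrow alone. MEP (CD16/32- CD150+) were sorted from Runx1Δ/Δ and from Runx1wt/wt marrow. GMP (CD16/32+ CD150-) were likewise sorted from Runx1Δ/Δ and from Runx1wt/wt marrow. The sources used here give no ages. MEP and GMP are the usual names of progenitors of megakaryocytes and red cells and of progenitors of granulocytes and monocytes.

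Platelets are released by megakaryocytes and carry receptors for the signs of a damaged vessel. Thrombin cleaves the protease-activated receptors, which act through G proteins, whereas collagen binds GPVI and podoplanin binds CLEC-2, which both signal through the kinase Syk and adaptors such as LAT and SLP-76 to phospholipase C. Calcium then acts on the Rap1 exchange factor CalDAG-GEFI, and protein kinase C acts on pleckstrin. Kindlin-3 helps to activate the integrin that binds fibrinogen. In marrow such genes are known for their use in megakaryocytes, although several also serve in other blood cells.

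Promoters were read from RefSeq (GRCm38.p6), as the 250 bases before and the 50 bases from each start site, and 11 promoters matched the 10 genes. They were searched on both strands for the RUNX letters TGTGGT and the GATA letters AGATAA, named after the families of factors known for them. RUNX letters were in 3 of the 11 promoters (F2r, Lat and Fermt3) and in 16.8% of 32851 promoters of the genome. GATA letters were in 3 of the 11 (Clec1b, F2rl2 and Gp6) and in 11.2% of all promoters. The ETS letters AGGAAG were in 4 of the 11 (F2rl2, Lat, Prkcq and Fermt3) and in 35.4% of all, and the NF-E2 letters TGAGTCA in 2 of the 11 (F2r and F2rl2) and in 5.2% of all. A match is a description of the letters and shows no binding, and its absence says only that these letters are not in this window. Shown here are the 3 promoters with RUNX letters, for the gene removed in the study, and those of Clec1b and Treml1, which rose in both Runx1Δ/Δ populations. Each is written 5′ to 3′ on the strand of the gene, and capitals mark RUNX letters (TGTGGT or, on the other strand, ACCACA) and GATA letters (AGATAA). F2r lies on the minus strand at chr13:95618417-95618716, Lat on the minus strand at chr7:126369519-126369818 and Fermt3 on the minus strand at chr19:7019420-7019719. Clec1b lies on the plus strand at chr6:129397047-129397346 and Treml1 on the plus strand at chr17:48359666-48359965.
F2r: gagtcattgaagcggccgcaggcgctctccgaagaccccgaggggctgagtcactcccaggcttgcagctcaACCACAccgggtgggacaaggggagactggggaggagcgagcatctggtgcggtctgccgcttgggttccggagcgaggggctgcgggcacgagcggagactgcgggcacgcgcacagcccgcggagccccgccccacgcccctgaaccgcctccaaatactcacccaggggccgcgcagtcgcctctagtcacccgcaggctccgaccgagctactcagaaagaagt
Lat: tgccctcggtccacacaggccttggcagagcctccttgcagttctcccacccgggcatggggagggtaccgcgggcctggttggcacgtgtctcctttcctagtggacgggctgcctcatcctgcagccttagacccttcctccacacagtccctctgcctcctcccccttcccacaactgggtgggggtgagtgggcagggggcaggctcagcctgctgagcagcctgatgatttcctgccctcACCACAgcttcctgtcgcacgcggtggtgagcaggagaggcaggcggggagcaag
Fermt3: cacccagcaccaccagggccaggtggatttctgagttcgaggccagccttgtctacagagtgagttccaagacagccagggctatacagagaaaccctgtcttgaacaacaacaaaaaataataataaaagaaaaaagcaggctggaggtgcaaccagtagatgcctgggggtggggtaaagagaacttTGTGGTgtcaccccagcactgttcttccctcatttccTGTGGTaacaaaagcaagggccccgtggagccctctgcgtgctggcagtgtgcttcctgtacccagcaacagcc
Clec1b: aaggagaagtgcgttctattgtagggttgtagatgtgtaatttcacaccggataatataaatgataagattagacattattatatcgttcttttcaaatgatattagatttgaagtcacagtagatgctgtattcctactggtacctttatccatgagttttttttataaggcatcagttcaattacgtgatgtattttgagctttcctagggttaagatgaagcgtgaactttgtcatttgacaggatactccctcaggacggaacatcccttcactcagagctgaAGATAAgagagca
Treml1: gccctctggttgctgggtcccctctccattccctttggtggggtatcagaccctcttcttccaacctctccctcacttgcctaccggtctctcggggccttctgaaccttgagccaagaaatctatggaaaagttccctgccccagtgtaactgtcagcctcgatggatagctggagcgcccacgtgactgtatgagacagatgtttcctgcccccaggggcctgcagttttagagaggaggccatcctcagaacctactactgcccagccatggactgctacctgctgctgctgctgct
The first of the RUNX letters stood at base -178 from the start site in F2r, at -5 in Lat, and at -61 and -24 in Fermt3. The GATA letters of Clec1b began at base 38 after the start. The window of Treml1 held none of the 4 motifs.

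Libraries held 20.8 to 54.9 M reads behind the RPKM values. A gene entered the test where 2 or more libraries reached 1 RPKM, which left 10905 genes. The test was limma on log2(RPKM + 1), and a gene was called where its Benjamini-Hochberg adjusted p over all tested genes was under 0.05. Fold changes are log2 ± SE on that scale, which understates changes of low genes. Labels do not say that the 2 libraries of a group came from separate animals, so p-values measure only the spread between these libraries. The level of Runx1 was higher in Runx1Δ/Δ libraries (36.8 to 85.9 RPKM) than in Runx1wt/wt libraries (17.2 to 28.5 RPKM), and the level of the whole gene does not check a deletion of part of it. Itga2b, which encodes CD41, had 652 and 682 RPKM in XMP, although the gate was CD41-. The first Runx1wt/wt MEP library stood apart in the balance of long and short genes: the median deviation of genes of at least 4622 bases from their means over libraries, minus that of genes of at most 1541 bases, was -0.94 log2. The other 9 libraries lay between -0.38 and 0.51. Both Runx1wt/wt GMP libraries were sequenced on other lanes than both Runx1Δ/Δ GMP libraries, so lane and genotype cannot be told apart in GMP. In sorted bulk RNA, fewer cells of a type and less RNA per cell cannot be told apart.

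Across the 5 groups, the 10 genes shared an order with few exceptions. The mean level was highest in XMP for 8 of the 10 genes, and the exceptions were Gp6, highest in Runx1Δ/Δ MEP, and Rasgrp2, highest in Runx1wt/wt GMP. The mean level was lowest in Runx1wt/wt GMP for 9 of the 10, the exception being Rasgrp2, which was lowest in Runx1Δ/Δ MEP. The share of all genes with these highest and lowest groups was not counted, so both counts only describe the 10. A list of 7 megakaryocyte and platelet markers (Pf4, Ppbp, Itga2b, Gp9, Gp1bb, Vwf and Selp) summed to 1008 to 1249.7 RPKM in XMP, 469.7 to 582 in Runx1Δ/Δ MEP, 704 to 795 in Runx1wt/wt MEP, 113 to 118 in Runx1Δ/Δ GMP and 38.5 to 49.6 in Runx1wt/wt GMP. Their part in the levels of the 10 genes was not tested. Itga2b made most of both GMP sums, with means of 78 RPKM in Runx1Δ/Δ GMP and 31.4 RPKM in Runx1wt/wt GMP. Itga2b and Selp rose in Runx1Δ/Δ GMP (log2 fold change 1.29 and 2.34, limma adjusted p = 0.00211 and 0.000122). Pf4, Ppbp, Gp9, Gp1bb and Vwf also had the higher mean in Runx1Δ/Δ GMP but did not pass. Of the 7, Selp rose in Runx1Δ/Δ MEP (8.88 against 3.92 RPKM in Runx1wt/wt MEP, limma adjusted p = 0.0178), and the others did not pass. Pf4, Gp1bb and Vwf had the lower mean in Runx1Δ/Δ MEP, with Pf4 at 189 RPKM in Runx1Δ/Δ MEP and 528 RPKM in Runx1wt/wt MEP (limma adjusted p = 0.097), and Ppbp, Itga2b and Gp9 had the higher mean in Runx1Δ/Δ MEP.

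**Figure D1:**
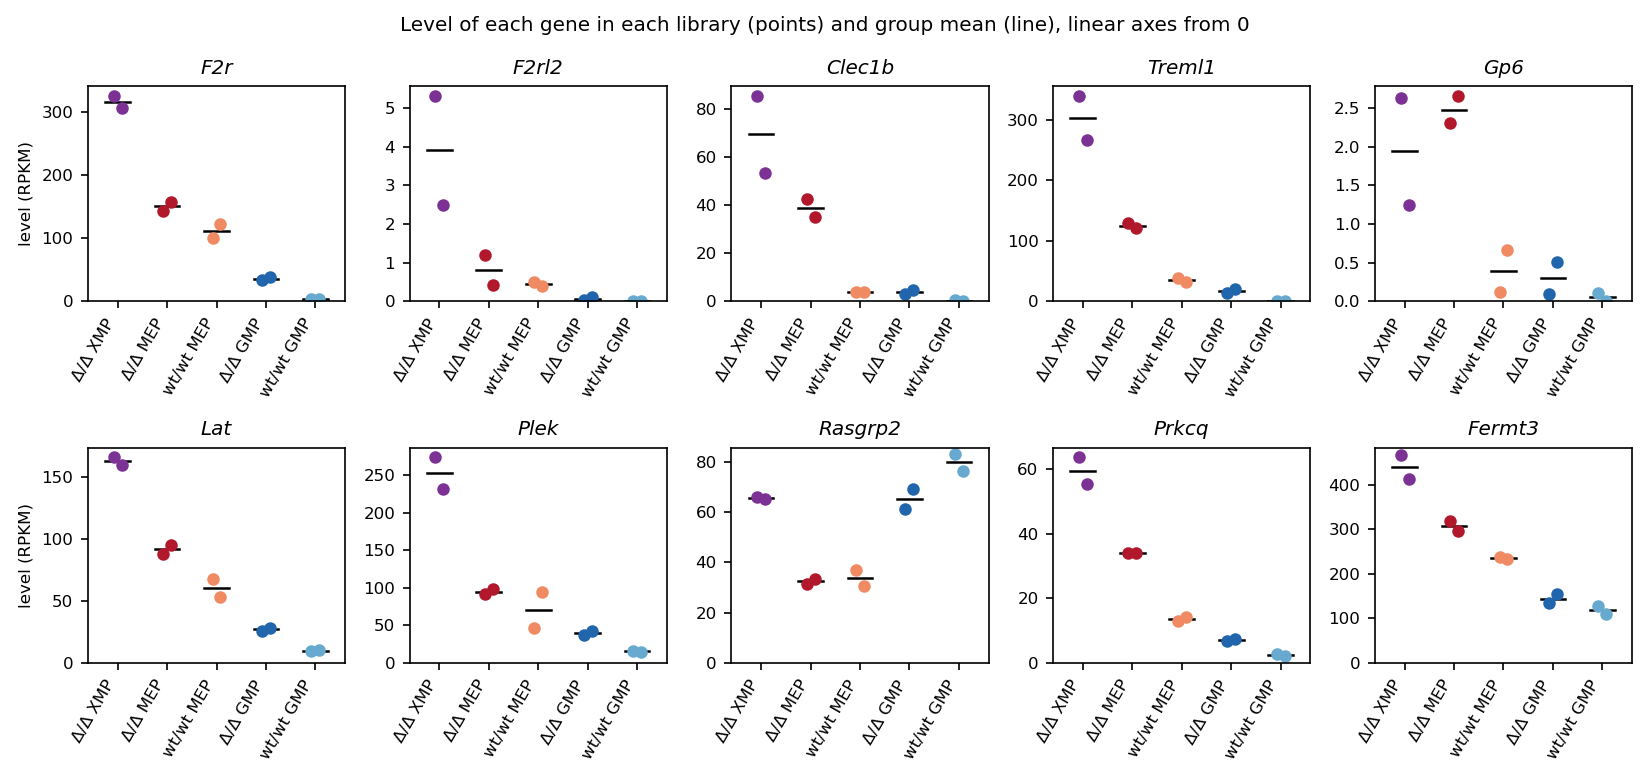
Level of each of the 10 genes in RPKM, 1 panel per gene, each with its own vertical axis; points are single libraries and lines are group means of 2 libraries, with groups in the order XMP, Runx1Δ/Δ MEP, Runx1wt/wt MEP, Runx1Δ/Δ GMP and Runx1wt/wt GMP. F2r reached 325 RPKM in XMP and stayed at or under 3.7 RPKM in Runx1wt/wt GMP, while Rasgrp2 was highest in Runx1wt/wt GMP (83.1 and 76.5 RPKM).

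F2r encodes PAR1, a receptor cleaved by thrombin. F2r had 325 and 306 RPKM in XMP, 143 and 158 RPKM in Runx1Δ/Δ MEP, 99.8 and 122 RPKM in Runx1wt/wt MEP, 34.2 and 38.4 RPKM in Runx1Δ/Δ GMP and 3.7 and 3.29 RPKM in Runx1wt/wt GMP. No 2 groups overlapped. Mouse platelets are known to use PAR3 and PAR4 for thrombin, with PAR1 the main form in human platelets. F2rl3, which encodes PAR4 and is not among the 10, had 11.8 and 11 RPKM in XMP, 11.9 and 9.01 RPKM in Runx1Δ/Δ MEP, 9.78 and 16.2 RPKM in Runx1wt/wt MEP, 7.38 and 7.1 RPKM in Runx1Δ/Δ GMP and 7.73 and 7.32 RPKM in Runx1wt/wt GMP. F2rl3 passed the test in none of the 6 comparisons, with log2 differences between -0.26 and 0.67 and unadjusted p under 0.05 in 2 of them.

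F2rl2 encodes PAR3, a co-receptor for thrombin. F2rl2 was low: it had 5.3 and 2.5 RPKM in XMP, 1.21 and 0.422 RPKM in Runx1Δ/Δ MEP, 0.513 and 0.393 RPKM in Runx1wt/wt MEP, 0.0443 and 0.106 RPKM in Runx1Δ/Δ GMP and 0 RPKM in both Runx1wt/wt GMP libraries. These were 547 and 269 reads in XMP, 111 and 44 in Runx1Δ/Δ MEP, 46 and 44 in Runx1wt/wt MEP, 6 and 12 in Runx1Δ/Δ GMP and 0 in Runx1wt/wt GMP. XMP lay above every other library, and Runx1Δ/Δ and Runx1wt/wt MEP overlapped. F2rl2 passed the filter through 3 libraries of XMP and Runx1Δ/Δ MEP, so a difference of these from the others was built into its being tested. F2r and F2rl2 lie near each other on chromosome 13, with 1 protein-coding gene (Iqgap2) between them.

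Clec1b encodes CLEC-2, the receptor for podoplanin. Clec1b had 85.2 and 53.5 RPKM in XMP, 42.6 and 35.1 RPKM in Runx1Δ/Δ MEP, 3.92 and 3.99 RPKM in Runx1wt/wt MEP, 3.04 and 4.73 RPKM in Runx1Δ/Δ GMP and 0.429 and 0.041 RPKM in Runx1wt/wt GMP. Runx1wt/wt MEP and Runx1Δ/Δ GMP overlapped, and every other pair of groups was apart. The Runx1wt/wt GMP levels rest on 20 reads and 1 read.

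Treml1 encodes TLT-1, a receptor stored in platelet alpha granules. Treml1 had 339 and 267 RPKM in XMP, 129 and 121 RPKM in Runx1Δ/Δ MEP, 38.9 and 32.6 RPKM in Runx1wt/wt MEP, 14.3 and 20.1 RPKM in Runx1Δ/Δ GMP and 1.11 and 0.786 RPKM in Runx1wt/wt GMP. No 2 groups overlapped. Gp6 encodes GPVI, the collagen receptor, which signals through the Fc receptor gamma chain (Fcer1g). Gp6 had 2.63 and 1.25 RPKM in XMP, 2.3 and 2.65 RPKM in Runx1Δ/Δ MEP, 0.119 and 0.669 RPKM in Runx1wt/wt MEP, 0.0948 and 0.508 RPKM in Runx1Δ/Δ GMP and 0.109 and 0 RPKM in Runx1wt/wt GMP. XMP and Runx1Δ/Δ MEP overlapped and both lay above the other groups, which overlapped among themselves. Gp6 had 5 and 35 reads in Runx1wt/wt MEP, 6 and 27 in Runx1Δ/Δ GMP and 5 and 0 in Runx1wt/wt GMP, and it passed the filter through its 4 libraries of XMP and Runx1Δ/Δ MEP alone.

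Lat encodes an adaptor that gathers phospholipase C and its partners at the membrane, in platelets and in T cells. Lat had 166 and 159.6 RPKM in XMP, 87.9 and 95.4 RPKM in Runx1Δ/Δ MEP, 68 and 53.3 RPKM in Runx1wt/wt MEP, 25.6 and 28.4 RPKM in Runx1Δ/Δ GMP and 9.72 and 10.1 RPKM in Runx1wt/wt GMP. No 2 groups overlapped. Prkcq encodes protein kinase C theta, also known from T cells. Prkcq had 63.6 and 55.4 RPKM in XMP, 34 RPKM in both Runx1Δ/Δ MEP libraries, 13.1 and 14.2 RPKM in Runx1wt/wt MEP, 6.83 and 7.33 RPKM in Runx1Δ/Δ GMP and 2.79 and 2.19 RPKM in Runx1wt/wt GMP. No 2 groups overlapped here either. The 10 T and NK cell markers summed to 30.6 to 44.5 RPKM in XMP, 6.32 to 11.5 in Runx1Δ/Δ MEP, 126 to 181 in Runx1wt/wt MEP, 93.5 to 123 in Runx1Δ/Δ GMP and 268 to 328 in Runx1wt/wt GMP. Most of each sum was Nkg7, a granule protein of NK cells, with means of 34.7 RPKM in XMP, 6.1 in Runx1Δ/Δ MEP, 149.7 in Runx1wt/wt MEP, 102 in Runx1Δ/Δ GMP and 293 in Runx1wt/wt GMP. Cd3d, Cd3e, Cd3g and Cd8a were under 0.1 RPKM in every library of XMP and of Runx1Δ/Δ MEP. Of the other markers, Cd247 averaged 1.08 RPKM in XMP and 1.94 in Runx1Δ/Δ MEP, and Lck 0.57 and 0.345. Cd4 averaged 0.462 and 0.209 RPKM in these groups, Il7r 0.437 and 0.222, and Klrb1c 0.193 and 0.0102. The part of T and NK cells in the levels of Lat and Prkcq was not tested.

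Plek encodes pleckstrin, the main protein kinase C substrate of platelets, also found in other blood cells. Plek had 274 and 232 RPKM in XMP, 91.4 and 98.5 RPKM in Runx1Δ/Δ MEP, 47 and 94.6 RPKM in Runx1wt/wt MEP, 37.8 and 42.1 RPKM in Runx1Δ/Δ GMP and 15.9 and 14.6 RPKM in Runx1wt/wt GMP. The 2 MEP groups overlapped through the second Runx1wt/wt library, and the first was the library that stood apart in the balance of long and short genes. Fermt3 encodes kindlin-3, which activates integrins in blood cells. Fermt3 had 466 and 414 RPKM in XMP, 318 and 296 RPKM in Runx1Δ/Δ MEP, 238 and 234 RPKM in Runx1wt/wt MEP, 134 and 154 RPKM in Runx1Δ/Δ GMP and 128 and 109 RPKM in Runx1wt/wt GMP. No 2 groups overlapped, and the mean in XMP was 3.72-fold that in Runx1wt/wt GMP, the smallest such ratio after that of Rasgrp2.

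Rasgrp2 encodes CalDAG-GEFI, which loads Rap1 with GTP. Rasgrp2 had 65.9 and 65.4 RPKM in XMP, 31.6 and 33.3 RPKM in Runx1Δ/Δ MEP, 36.8 and 30.7 RPKM in Runx1wt/wt MEP, 61.1 and 69.1 RPKM in Runx1Δ/Δ GMP and 83.1 and 76.5 RPKM in Runx1wt/wt GMP. Runx1wt/wt GMP lay above all other libraries, XMP lay within the range of Runx1Δ/Δ GMP, and both MEP groups overlapped at the low end. It was the only one of the 10 genes with its highest mean in a Runx1wt/wt group.

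In GMP, 6 of the 10 genes rose in Runx1Δ/Δ libraries and none fell, where 5.22% of the 10905 genes were called, 3.15% higher and 2.07% lower. The calls over all genes were 343 higher and 226 lower, and 306 higher and 306 lower with quantile normalization. At an unadjusted p under 0.05 none of the 10 was lower either. The median log2 fold change of the 10 was 1.27, against 0.05 for all genes tested. Treml1 averaged 17.2 ± 4.12 RPKM in Runx1Δ/Δ GMP and 0.948 ± 0.229 RPKM in Runx1wt/wt GMP (SD, n = 2 each), a ratio of 18.1 and a log2 fold change of 3.21 ± 0.21 (limma adjusted p = 6.34e-06). F2r averaged 36.3 ± 2.99 RPKM in Runx1Δ/Δ GMP and 3.49 ± 0.291 RPKM in Runx1wt/wt GMP, a ratio of 10.4 and a log2 fold change of 3.05 ± 0.17 (limma adjusted p = 2.74e-06). Clec1b averaged 3.88 ± 1.19 RPKM in Runx1Δ/Δ GMP and 0.235 ± 0.274 RPKM in Runx1wt/wt GMP, with a log2 fold change of 1.98 ± 0.27 (limma adjusted p = 0.00127). With a pseudocount of 0.1 that log2 fold change was 3.83. All 3 receptors were at or under 3.7 RPKM in Runx1wt/wt GMP, and in Runx1Δ/Δ GMP they were below their levels in Runx1Δ/Δ MEP.

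Of the signalling genes in GMP, Lat rose by 1.36 ± 0.17, Plek by 1.33 ± 0.27 and Prkcq by 1.22 ± 0.17 on the log2 scale (limma adjusted p = 0.000747, 0.0145 and 0.00156). The call of Plek was lost when any of the 4 GMP libraries was left out (limma adjusted p between 0.0637 and 0.16) and without the filter (limma adjusted p = 0.0626), within 0.00096 to 0.16 over 19 alternatives. Fermt3 averaged 144 ± 14.2 RPKM in Runx1Δ/Δ GMP and 118 ± 13.3 RPKM in Runx1wt/wt GMP and did not pass (log2 difference 0.28 ± 0.18, limma adjusted p = 0.379). Rasgrp2 averaged 65.1 ± 5.66 RPKM in Runx1Δ/Δ GMP and 79.8 ± 4.6 RPKM in Runx1wt/wt GMP and did not pass (log2 difference -0.29 ± 0.16, limma adjusted p = 0.303). F2rl2 and Gp6 did not pass either, at log2 differences of 0.1 and 0.29. The mean of F2rl2 in Runx1Δ/Δ GMP, 0.075 RPKM, was 3.74-fold the level that 3 reads over both Runx1wt/wt GMP libraries would give. That ratio allows for the counting error in Runx1wt/wt GMP only, and not for that of the 6 and 12 reads in Runx1Δ/Δ GMP.

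The balance of long and short genes moved with genotype in GMP: the same measure was 0.3 and 0.22 log2 in Runx1Δ/Δ GMP and -0.31 and -0.38 log2 in Runx1wt/wt GMP. Lane moved with it. With the trend in length taken out of each library the same 6 genes rose, F2r by 2.93, Treml1 by 3.43, Clec1b by 2.22, Lat by 1.58, Plek by 1.15 and Prkcq by 1.09 on the log2 scale. The part of the lane was not tested.

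In MEP, 4 of the 10 genes rose in Runx1Δ/Δ libraries and none fell, where 8.0% of all genes tested were called, 3.97% higher and 4.03% lower. None of the 10 was lower at an unadjusted p under 0.05. Of these 4, Gp6 was tested only through its levels in XMP and Runx1Δ/Δ MEP, so that a difference was built into its being tested. The median log2 fold change of the 10 was 0.55, against 0.03 for all genes. Clec1b averaged 38.9 ± 5.32 RPKM in Runx1Δ/Δ MEP and 3.96 ± 0.0483 RPKM in Runx1wt/wt MEP, a ratio of 9.83 and a log2 fold change of 3.0 ± 0.27 (limma adjusted p = 8.01e-05). Treml1 averaged 125 ± 5.74 RPKM in Runx1Δ/Δ MEP and 35.8 ± 4.41 RPKM in Runx1wt/wt MEP, a ratio of 3.5 and a log2 fold change of 1.78 ± 0.21 (limma adjusted p = 0.000376). Prkcq averaged 34 ± 0.0138 RPKM in Runx1Δ/Δ MEP and 13.6 ± 0.735 RPKM in Runx1wt/wt MEP, a ratio of 2.49 and a log2 fold change of 1.26 ± 0.17 (limma adjusted p = 0.000971). These 3 genes, for the receptor CLEC-2, a granule receptor and a kinase, rose in GMP as well as in MEP.

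Gp6 averaged 2.47 ± 0.244 RPKM in Runx1Δ/Δ MEP and 0.394 ± 0.389 RPKM in Runx1wt/wt MEP, and it rose by 1.34 ± 0.26 on the log2 scale (limma adjusted p = 0.00894). The call of Gp6 was lost without the first Runx1wt/wt MEP library (log2 difference 1.06) and without the second Runx1Δ/Δ MEP library (1.27). Lanes 4 and 5 alone leave out that same first library, and Gp6 lost the call there too (1.06). Its adjusted p ran between 0.00399 and 0.117 over 19 alternatives. Lat averaged 91.7 ± 5.27 RPKM in Runx1Δ/Δ MEP and 60.6 ± 10.4 RPKM in Runx1wt/wt MEP and did not pass (log2 difference 0.6 ± 0.17, limma adjusted p = 0.0553). Without the first Runx1wt/wt MEP library Lat passed, at a log2 difference of 0.77 (limma adjusted p = 0.0268), and over 20 alternatives its adjusted p ran between 0.00373 and 0.332.

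F2r averaged 150.2 ± 10.6 RPKM in Runx1Δ/Δ MEP and 111 ± 15.7 RPKM in Runx1wt/wt MEP and did not pass (log2 difference 0.44 ± 0.17, limma adjusted p = 0.155). Without the second Runx1wt/wt MEP library it did (log2 difference 0.58, limma adjusted p = 0.0325, within 0.0325 to 0.541 over 20 alternatives). Plek depended on which Runx1wt/wt MEP library was kept: its log2 difference was 0.5 ± 0.27 with both (limma adjusted p = 0.303), 0.01 without the first (limma adjusted p = 0.995) and 1 without the second (limma adjusted p = 0.00458). Fermt3 (log2 difference 0.37, limma adjusted p = 0.264), F2rl2 (0.29, limma adjusted p = 0.546) and Rasgrp2 (-0.05, limma adjusted p = 0.881) did not pass. Fermt3 passed with quantile normalization (limma adjusted p = 0.0337, within 0.0337 to 0.648 over 20 alternatives).

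**Figure D2:**
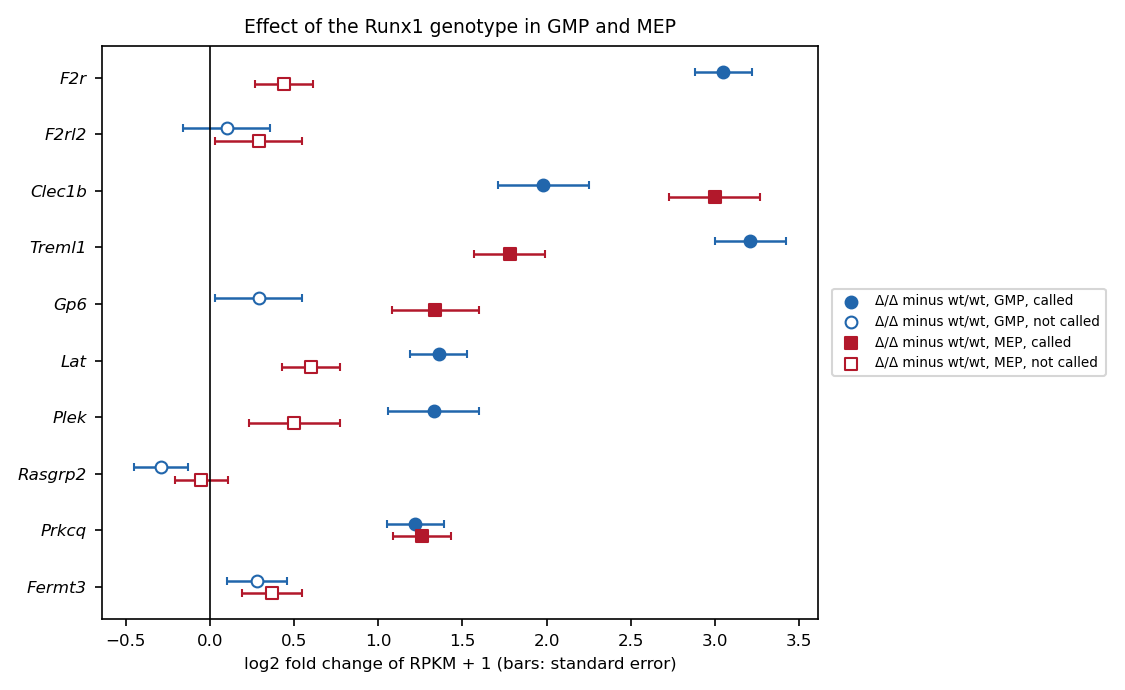
Log2 fold change of each of the 10 genes in Runx1Δ/Δ against Runx1wt/wt libraries in GMP and in MEP, on the log2(RPKM + 1) scale; points are estimates, bars are ± 1 SE, and filled points are called at an adjusted p under 0.05. F2r lies at 3.05 in GMP and 0.44 in MEP, while Prkcq lies at 1.22 in GMP and 1.26 in MEP.

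Whether a gene changed by another amount in GMP than in MEP was tested as the difference of both effects. F2r and Treml1 passed, 2 of the 10 genes, where 1.74% of all genes were called, 0.954% with the higher log2 fold change in GMP and 0.789% with the higher one in MEP. The effect on F2r was larger in GMP by 2.61 ± 0.24 on the log2 scale (limma adjusted p = 0.000393), and this call held under all 19 alternatives (adjusted p between 8.6e-05 and 0.00627). The effect on Treml1 was larger in GMP by 1.43 ± 0.29 (limma adjusted p = 0.0331). That call was lost under 8 of 19 alternatives, 6 of which left out a library, with adjusted p between 0.00769 and 0.195 over all 19. For Clec1b the difference was -1.02 ± 0.38 (limma adjusted p = 0.3), and it was 0.57 with a pseudocount of 0.1, so its sign depends on how low levels are treated. For Prkcq it was -0.04 ± 0.24 (limma adjusted p = 0.999). Plek (0.83) and Lat (0.76) did not pass, but passed without the first (Plek, limma adjusted p = 0.0239, within 0.0239 to 1 over 19 alternatives) or the second Runx1wt/wt MEP library (Lat, limma adjusted p = 0.0433, within 0.0433 to 0.648 over 19 alternatives). The median over the 10 genes was -0.07, against 0.01 over all genes.

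XMP share the CD16/32+ side of the gate with GMP. Against Runx1Δ/Δ GMP, 9 of the 10 genes rose in XMP and none fell, where 19.7% of all genes were called, 9.75% higher and 9.9% lower. The median log2 fold change of the 10 was 2.59, against 0.05 for all genes. Treml1 averaged 303 ± 50.8 RPKM in XMP and 17.2 ± 4.12 RPKM in Runx1Δ/Δ GMP, a ratio of 17.6 and a log2 fold change of 4.07 ± 0.21 (limma adjusted p = 2.09e-07). Clec1b averaged 69.3 ± 22.4 RPKM in XMP and 3.88 ± 1.19 RPKM in Runx1Δ/Δ GMP, a ratio of 17.9 and a log2 fold change of 3.83 ± 0.27 (limma adjusted p = 1.59e-06). F2r averaged 315 ± 13.8 RPKM in XMP and 36.3 ± 2.99 RPKM in Runx1Δ/Δ GMP, a ratio of 8.69 and a log2 fold change of 3.09 ± 0.17 (limma adjusted p = 3.06e-07). Of the signalling genes, Prkcq rose by 2.9, Plek by 2.63, Lat by 2.55 and Fermt3 by 1.61, at limma adjusted p of at most 6.92e-05.

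The low receptors F2rl2 and Gp6 also rose in XMP against Runx1Δ/Δ GMP, with a log2 fold change of 2.13 ± 0.26 for F2rl2 (limma adjusted p = 0.000123) and of 1.16 ± 0.26 for Gp6 (limma adjusted p = 0.00717). Both had been tested only through levels in XMP and Runx1Δ/Δ MEP. The call of Gp6 was lost without the first Runx1Δ/Δ GMP library (limma adjusted p = 0.0837) and without the first XMP library (limma adjusted p = 0.0738), within 4.69e-05 to 0.0837 over 20 alternatives. Rasgrp2 did not pass, at 65.7 ± 0.407 RPKM in XMP and 65.1 ± 5.66 RPKM in Runx1Δ/Δ GMP (log2 difference 0.02 ± 0.16, limma adjusted p = 0.971). Granulocyte and monocyte markers summed to 129 to 164 RPKM in XMP, 30 to 32.1 in Runx1Δ/Δ MEP and 7614 to 7956 in Runx1Δ/Δ GMP.

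Against Runx1Δ/Δ MEP, which share the CD150+ side of the gate, 7 of the 10 genes rose in XMP and none fell, where 7.74% of all genes were called, 5.14% higher and 2.6% lower. The calls over all genes were 560 higher and 284 lower, and 626 higher and 526 lower with quantile normalization. None of the 10 was lower at an unadjusted p under 0.05, here or against Runx1Δ/Δ GMP. The median was 0.91, against 0.05 for all genes. This comparison shares the XMP libraries with the one against Runx1Δ/Δ GMP. Plek averaged 253 ± 29.3 RPKM in XMP and 95 ± 5.01 RPKM in Runx1Δ/Δ MEP, a ratio of 2.66 and a log2 fold change of 1.4 ± 0.27 (limma adjusted p = 0.00932). F2r rose by 1.07 ± 0.17 (limma adjusted p = 0.00356) and Rasgrp2 by 0.99 ± 0.16 (limma adjusted p = 0.00428), and these calls held under all 20 alternatives. Rasgrp2 averaged 65.7 ± 0.407 RPKM in XMP and 32.5 ± 1.15 RPKM in Runx1Δ/Δ MEP. It thus differed from Runx1Δ/Δ MEP in the comparison where Clec1b (0.79, limma adjusted p = 0.109), Fermt3 (0.52, limma adjusted p = 0.129) and Gp6 (-0.28, limma adjusted p = 0.649) did not pass.

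Treml1 (1.26), F2rl2 (1.41), Lat (0.82) and Prkcq (0.79) also rose in XMP against Runx1Δ/Δ MEP. F2rl2 was tested only through both XMP libraries and 1 Runx1Δ/Δ MEP library. Without the first XMP library the calls of these 4 genes and of Plek were lost. Their log2 fold changes were then 1.09 for Treml1, 0.98 for F2rl2, 0.79 for Lat, 0.69 for Prkcq and 1.28 for Plek. Lat and Prkcq also lost the call without the second XMP library (log2 fold change 0.85 and 0.89) and without either Runx1Δ/Δ MEP library. F2rl2 lost it without the second Runx1Δ/Δ MEP library as well (1.09), and Plek without the first (1.35). Over the alternatives the adjusted p ran between 0.000416 and 0.0509 for Treml1, 0.00319 and 0.0731 for F2rl2, 0.00191 and 0.1 for Lat, 0.00273 and 0.172 for Prkcq, and 0.000754 and 0.0758 for Plek. The first XMP library had the higher level of every one of these 5 genes, and the part of this in the calls was not tested.

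**Figure D3:**
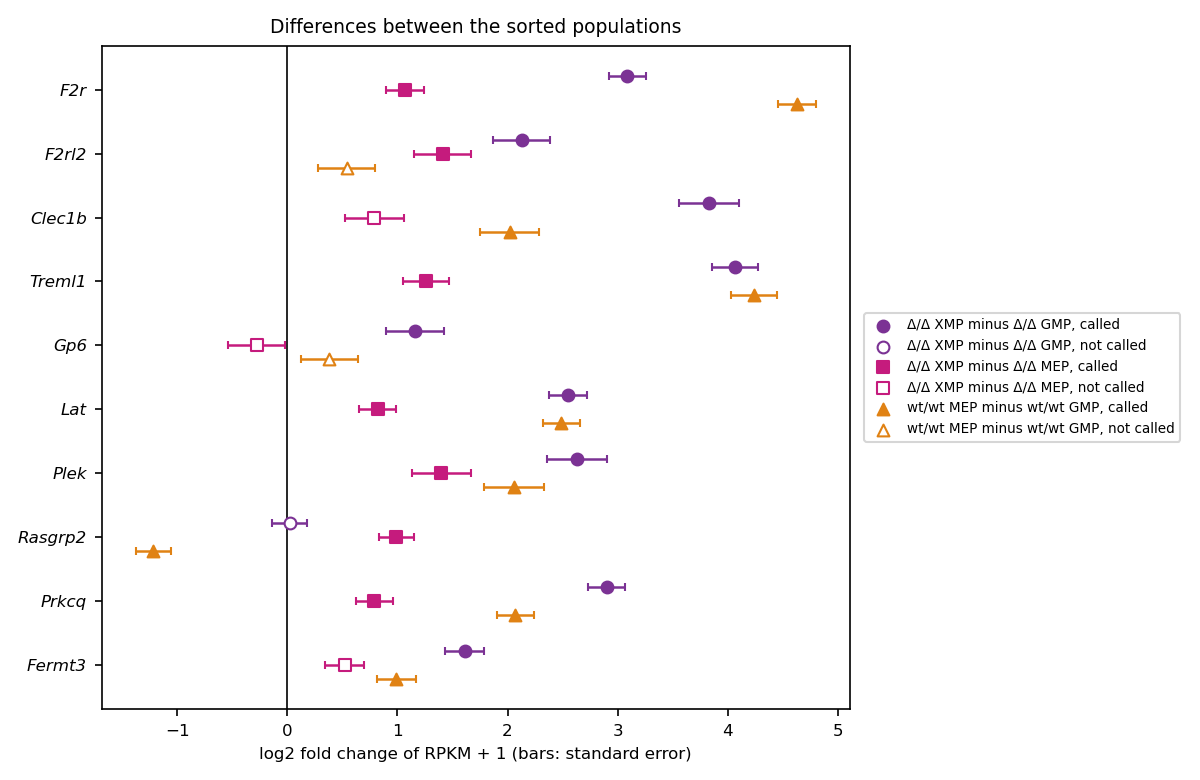
Log2 fold change of each of the 10 genes in XMP against Runx1Δ/Δ GMP, in XMP against Runx1Δ/Δ MEP, and in Runx1wt/wt MEP against Runx1wt/wt GMP, on the log2(RPKM + 1) scale; points are estimates, bars are ± 1 SE, and filled points are called at an adjusted p under 0.05. Treml1 lies at 4.07 in XMP against Runx1Δ/Δ GMP, and Rasgrp2 at 0.02 there and at -1.22 in Runx1wt/wt MEP against Runx1wt/wt GMP.

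Between the normal populations, 7 of the 10 genes rose and 1 fell in Runx1wt/wt MEP against Runx1wt/wt GMP, where 21.6% of all genes were called, 9.83% higher and 11.7% lower. The median of the 10 was 2.04, against 0.06 for all genes. F2r averaged 111 ± 15.7 RPKM in Runx1wt/wt MEP and 3.49 ± 0.291 RPKM in Runx1wt/wt GMP, a ratio of 31.7 and a log2 fold change of 4.63 ± 0.17 (limma adjusted p = 1.53e-08). Treml1 averaged 35.8 ± 4.41 RPKM in Runx1wt/wt MEP and 0.948 ± 0.229 RPKM in Runx1wt/wt GMP, a ratio of 37.7 and a log2 fold change of 4.24 ± 0.21 (limma adjusted p = 1.05e-07). Lat rose by 2.49, Prkcq by 2.07, Plek by 2.06, Clec1b by 2.02 and Fermt3 by 0.99, at limma adjusted p of at most 0.00211. Rasgrp2 averaged 33.8 ± 4.36 RPKM in Runx1wt/wt MEP and 79.8 ± 4.6 RPKM in Runx1wt/wt GMP, and it fell by 1.22 on the log2 scale (limma adjusted p = 0.0002). All 8 calls held without the first Runx1wt/wt MEP library.

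F2rl2 did not pass between the normal populations (log2 difference 0.54, limma adjusted p = 0.189), although 46 and 44 reads in Runx1wt/wt MEP stood against 0 in Runx1wt/wt GMP. The mean level of F2rl2 in Runx1wt/wt MEP was 22.6-fold the level that 3 reads over both Runx1wt/wt GMP libraries would give. With a pseudocount of 0.1 F2rl2 passed (log2 difference 2.46, limma adjusted p = 0.0034, within 0.0034 to 0.438 over 17 alternatives). Gp6 did not pass (log2 difference 0.38, limma adjusted p = 0.37). This comparison shares its libraries with the 2 comparisons by genotype, the Runx1wt/wt MEP libraries with that in MEP and the Runx1wt/wt GMP libraries with that in GMP.

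A further 56 genes of platelet activation gave a wider view, of which 52 were tested (F2rl1, P2ry12, Adra2a and Gnaz were too low). In Runx1Δ/Δ against Runx1wt/wt GMP, 3 of the 52 rose and none fell by limma (3 were lower at an unadjusted p under 0.05), with a median of 0.31, where 3.15% of all genes were called higher and 2.07% lower. With each library left out in turn 2 to 9 of the 52 were called, 9 without either Runx1wt/wt MEP library, which this comparison does not use other than for the spread. Ptgir, the receptor for prostacyclin, which inhibits platelets, had 4.61 and 7.01 RPKM in Runx1Δ/Δ GMP and 1.47 and 0.935 RPKM in Runx1wt/wt GMP (log2 fold change 1.62 ± 0.21, limma adjusted p = 0.0012). Lcp2, the adaptor SLP-76 that works beside LAT, had 34.3 and 39.1 RPKM in Runx1Δ/Δ GMP and 17.8 and 13.6 RPKM in Runx1wt/wt GMP (log2 fold change 1.19 ± 0.18, limma adjusted p = 0.00258). Snap23, a membrane fusion protein of granule release, rose by 0.78 ± 0.2 (limma adjusted p = 0.0453), a call lost under 10 of 19 alternatives (limma adjusted p between 0.015 and 0.327). Syk, the kinase of both CLEC-2 and GPVI, had 50 and 50.4 RPKM in Runx1Δ/Δ GMP and 41 and 33.8 RPKM in Runx1wt/wt GMP and did not pass (log2 difference 0.42 ± 0.19, limma adjusted p = 0.225).

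In Runx1Δ/Δ against Runx1wt/wt MEP, 6 of the 52 rose and 3 fell, with a median of 0.27, where 3.97% of all genes were called higher and 4.03% lower. Only 1 rose and 1 fell without the first Runx1wt/wt MEP library, without the second Runx1Δ/Δ MEP library or on lanes 4 and 5 alone, and 1 rose and 2 fell without the first Runx1Δ/Δ MEP library. Without the second Runx1wt/wt MEP library 17 rose and 3 fell. The calls over all genes moved as well when a library was left out, here and in the other comparisons (ranges are given below with the processing). Counts of the 52 in such fits therefore describe the 52 alone. Snap23 had 79.5 and 103 RPKM in Runx1Δ/Δ MEP and 34 and 45.1 RPKM in Runx1wt/wt MEP (log2 fold change 1.18 ± 0.2, limma adjusted p = 0.00386). Mpig6b, an inhibitory receptor of megakaryocytes listed in the table as AU023871, rose by 1.14 ± 0.23 (limma adjusted p = 0.0111). Mpig6b reached 1 RPKM in libraries of XMP and Runx1Δ/Δ MEP alone, so that a difference was built into its being tested. Pik3cb, a phosphoinositide kinase, rose by 0.93 ± 0.22 (limma adjusted p = 0.0248). Fcer1g, the chain through which GPVI signals, had 7.08 and 5.49 RPKM in Runx1Δ/Δ MEP and 20.1 and 14.5 RPKM in Runx1wt/wt MEP, and it fell by 1.32 on the log2 scale (limma adjusted p = 0.0217). Tbxa2r, the thromboxane receptor, fell by 1.04 (limma adjusted p = 0.0218), and Cd300a, an inhibitory receptor, fell by 1.47 (limma adjusted p = 0.000515). The calls of Snap23 and Cd300a held under all 20 alternatives. Without the first Runx1wt/wt MEP library, without the second Runx1Δ/Δ MEP library and on lanes 4 and 5 alone the calls of Mpig6b, Pik3cb, Fcer1g and Tbxa2r were lost. The limma adjusted p ran between 0.00477 and 0.111 for Mpig6b (AU023871), 0.00292 and 0.15 for Pik3cb, 0.00235 and 0.186 for Fcer1g, and 0.00734 and 0.199 for Tbxa2r over the alternatives. Fcer1g is also a subunit of receptors on granulocytes and mast cells.

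In XMP against Runx1Δ/Δ GMP, 21 of the 52 rose and 10 fell, with a median of 0.46, where 9.75% of all genes were called higher and 9.9% lower. With each library left out, 20 to 35 of the 52 were called. P2ry1, an ADP receptor, had 39.5 and 30.2 RPKM in XMP and 1.78 and 2.93 RPKM in Runx1Δ/Δ GMP (log2 fold change 3.43, limma adjusted p = 3.33e-06). Rab27b, of granule transport, rose by 3.24 and Rap1b, the GTPase that CalDAG-GEFI loads, by 2.56 (limma adjusted p = 8.1e-06 and 7e-06). Ptgir fell by 1.65, Fcer1g by 2.02 and Prkcd by 1.22 (limma adjusted p of at most 0.000726). In XMP against Runx1Δ/Δ MEP, 14 of the 52 rose and none fell by limma (2 were lower at an unadjusted p under 0.05), with a median of 0.52, where 5.14% of all genes were called higher and 2.6% lower. Without the first XMP library 5 rose, without the second 6, without the first Runx1Δ/Δ MEP library 5 and without the second 8, while without either Runx1wt/wt MEP library 22 rose and 1 fell. Of the 14 genes of signalling through Syk, 8 rose there (3 to 10 with a library left out, 3 without the first XMP or the first Runx1Δ/Δ MEP library), among them Plcg2 (log2 fold change 1.26, limma adjusted p = 0.00336) and Fyn (1.18, limma adjusted p = 0.00438), and Rap1b rose by 1.5 (limma adjusted p = 0.00246). These 3 calls held under all 20 alternatives. With a library left out the calls over all genes moved too, so counts of the 52 and of the 14 in such fits describe these genes alone. Plcg2, the phospholipase downstream of LAT, had 65.6 and 59.1 RPKM in XMP and 28 and 23.2 RPKM in Runx1Δ/Δ MEP.

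In Runx1wt/wt MEP against Runx1wt/wt GMP, 12 of the 52 rose and 14 fell, with a median of 0.02, where 9.83% of all genes were called higher and 11.7% lower. With each library left out, 21 to 29 were called. Tbxa2r rose by 2.5, Rab27b by 2.92 and P2ry1 by 2.37, whereas Fcer1g fell by 2.76, Vav3 by 1.7 and Prkcb by 1.48 (limma adjusted p of at most 0.000171). Tbxa2r stayed under 1 RPKM in every GMP library and Prkcb in every MEP library. The filter thus favoured the differences given for both genes. Rap1b had 208 and 257 RPKM in Runx1wt/wt MEP and 72.2 and 78.5 RPKM in Runx1wt/wt GMP (log2 fold change 1.61, limma adjusted p = 0.000229), while Rasgrp2, its exchange factor, fell in the same comparison.

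**Figure D4:**
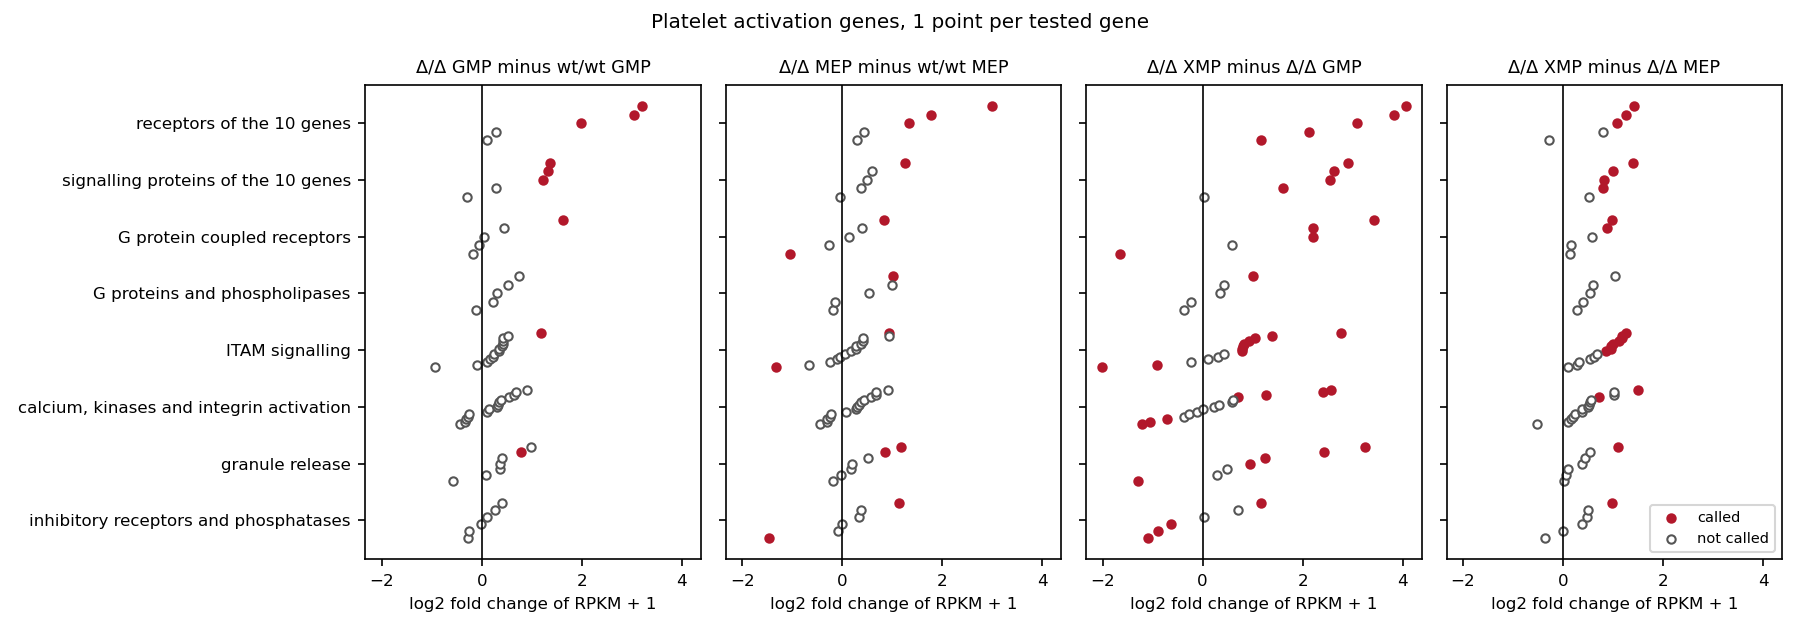
Log2 fold change, on the log2(RPKM + 1) scale, of each tested gene among the receptors and the signalling proteins of the 10 genes and in 6 groups of the other platelet activation genes, in 4 comparisons; each point is a gene, filled where called at an adjusted p under 0.05. In XMP against Runx1Δ/Δ MEP, 8 of the 14 genes of ITAM signalling, the pathway through Syk, rose and none fell. Of all genes tested, 5.14% were called higher and 2.6% lower there. Both the count of 8 and the calls over all genes moved with a library left out.

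The genes whose pattern over the 10 libraries was most like that of each gene were ranked by the root mean square difference of log2(RPKM + 1), each gene centred on its own mean. Gp5, a platelet glycoprotein of the von Willebrand factor receptor complex, was nearest to both F2r (0.285) and Treml1 (0.436). Chst1 (0.384) and Podxl (0.447) were nearest to Clec1b, and AU023871 (0.155) to Gp6. Dok2 (0.231) and Cd55 (0.246) were nearest to Lat, and Pdgfb (0.254) and Cd55 (0.258) to Prkcq. Lat and Prkcq were at 0.275 from each other. Itga2b, the integrin subunit itself, was nearest to Plek (0.257), Bcl2l1 (0.268) to F2rl2, Plekho1 (0.152) to Rasgrp2 and Ormdl3 (0.124) to Fermt3. Distances are smaller for genes that vary little, such as Fermt3 and Rasgrp2, and for low genes such as Gp6, so they rank neighbours of 1 gene and do not compare genes.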

How the data were processed

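RNA was sequenced from 5 groups of sorted mouse progenitors, 2 libraries each, prepared with either of 2 kits (NEBNext Ultra or TruSeq V2 LT) per the labels' protocols, with no statement of which library had which. The authors deposited 1 table of RPKM for 23240 genes; per the submitters' processing notes reads were placed on mm9, and no source used here names the aligner or the counter. Per the file headers, the table also holds p-values and FDR p-values of Baggerley's test between groups. Groups came from sample titles, and lanes from the column headers.

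Genes with 1 RPKM or more in 2 or more libraries (10905) were fitted on log2(RPKM + 1) with limma 3.58.1 in R 4.3.3 (lmFit, eBayes with trend) over all 10 libraries, with 1 mean per group, 5 residual degrees of freedom and Benjamini-Hochberg adjustment. The 6 comparisons were Runx1Δ/Δ minus Runx1wt/wt in each of GMP and MEP, the GMP effect minus the MEP effect, XMP minus Runx1Δ/Δ GMP, XMP minus Runx1Δ/Δ MEP, and Runx1wt/wt MEP minus Runx1wt/wt GMP. Reads were worked back from the RPKM values: all values were whole reads, within 0.01 read, for 19335 genes and not for 1, and 3904 genes were at 0. Totals were 20.8 to 54.9 M reads. Both steps were tested on simulated data.

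The 10 genes, the lists and the tests were chosen with earlier results of these data known. Chosen besides the 10 were Runx1, sort markers, the 3 genes most alike to each, and further platelet activation genes. The latter were, per comparison, up to 3 in each direction with the smallest p among those called. Of the sort markers only Itga2b is given here, and not all of the genes most alike are given. F2rl3, Syk and repeats of named genes were added after their values were seen. A further marker gene is not reported here. Mpig6b was matched to AU023871 through RefSeq synonyms. The labels do not say whether libraries of different groups are pairs, and the main fit took them as unpaired. Correlations of replicate differences between groups ran from -0.475 to 0.782. Library number runs opposite to the replicate number in Runx1Δ/Δ GMP, and ordered by it the correlations ran from -0.147 to 0.782. Among the Runx1Δ/Δ groups they were then 0.341 to 0.782, and 0.297 to 0.365 between these and Runx1wt/wt MEP. With Runx1wt/wt GMP they were -0.147 to 0.059. Whether libraries with near numbers shared a batch was not tested. Alternatives were quantile normalization, no trend, other filters, a pseudocount of 0.1, blocks by replicate or library number, lanes 4 and 5 alone, removal of the length trend, fits of the compared groups alone, and each library left out. A crossed replicate block, fitted on the compared groups alone, was chosen after seeing the data.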

Additional observations from a re-analysis of the deposited data

Results flagged for a closer look

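The effect of the Runx1 genotype differed between GMP and MEP for 3 of the named genes, by limma's test of the difference of both effects. These were 2 of the 10 genes and 1 of the 52 further genes tested, where 1.74% of all genes were called. Lane and genotype cannot be told apart in GMP. The call held under every alternative for F2r alone. For F2r the log2 effect was larger in GMP than in MEP by 2.61 (adjusted p = 0.000393), with Runx1Δ/Δ above Runx1wt/wt libraries in both populations. For Treml1 it was larger in GMP by 1.43 (adjusted p = 0.0331, between 0.00769 and 0.195 over the alternatives), again with Runx1Δ/Δ above Runx1wt/wt libraries in both.

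Cd300a, an inhibitory receptor, had a difference of effects of 1.22 (adjusted p = 0.0363). That call was lost under 12 of 19 alternatives, the replicate block among them (adjusted p = 0.0679), and the adjusted p ran between 0.02 and 0.205. It had 1.28 and 1.61 RPKM in Runx1Δ/Δ MEP and 5.87 and 5.68 RPKM in Runx1wt/wt MEP, and 9.51 and 9.06 RPKM in Runx1Δ/Δ GMP and 12.4 and 10.2 RPKM in Runx1wt/wt GMP. It fell in MEP and did not pass in GMP (log2 difference -0.25, adjusted p = 0.418).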

How the results depend on the processing

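Of 1170 values of the 10 genes under alternatives, 1104 kept direction and side of the threshold, 34 lost a call, 17 gained one and 15 changed sign, and 27 of 36 calls held under every alternative run. Where a value changed, the cause was not tested. The 2 libraries per group and low reads of F2rl2 and Gp6 limit precision, and both fell out under a mean of at least 5 RPKM. Lanes 4 and 5 alone could not be run where Runx1wt/wt GMP enters. With the replicate block, 6, 4, 2, 9, 7 and 8 of the 10 genes were called in GMP by genotype, in MEP by genotype, in the difference of these effects, in XMP against Runx1Δ/Δ GMP, in XMP against Runx1Δ/Δ MEP and in Runx1wt/wt MEP against Runx1wt/wt GMP, the same numbers as without it. Over all genes the replicate block gave 552 calls in GMP by genotype (569 without it). With a block by library number 6, 5, 2, 9, 9 and 8 of the 10 genes were called in the same order of comparisons. The gains were Lat in MEP by genotype (limma adjusted p = 0.0343) and Clec1b and Fermt3 in XMP against Runx1Δ/Δ MEP (limma adjusted p = 0.0369 and 0.0426). Calls over all genes under this block are not given here, so these gains are not set against a general gain in calls. The crossed replicate block was run on the compared groups alone. It gave 4665 calls over all genes in XMP against Runx1Δ/Δ GMP and 2066 in Runx1wt/wt MEP against Runx1wt/wt GMP. The main fit, over all libraries and without a block, gave 2143 and 2352. Both the block and the libraries fitted differ here, so the part of the block in these counts was not tested.

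In the difference of effects, 1 of the 10 genes was called without a filter and 1 with a mean of at least 5 RPKM. Leaving out each library gave 1 to 3 of the 10 genes there, 2 to 7 in XMP against Runx1Δ/Δ MEP, 5 to 6 in GMP by genotype, 3 to 6 in MEP by genotype, 8 to 9 in XMP against Runx1Δ/Δ GMP and 8 in each fit of Runx1wt/wt MEP against Runx1wt/wt GMP. Over all genes it gave 233 to 1729 calls in GMP by genotype, 361 to 3427 in MEP by genotype, 55 to 475 in the difference of effects, 1381 to 2790 in XMP against Runx1Δ/Δ GMP, 305 to 1462 in XMP against Runx1Δ/Δ MEP and 1636 to 3315 in Runx1wt/wt MEP against Runx1wt/wt GMP.

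With a mean of at least 5 RPKM, which tests fewer genes, all-gene calls were 196 in GMP by genotype, 412 in MEP by genotype, 63 in the difference of effects, 1200 in XMP against Runx1Δ/Δ GMP and 1380 in Runx1wt/wt MEP against Runx1wt/wt GMP. With only the groups compared they were 1931 in GMP and 301 in MEP by genotype. With the length trend removed they were 1355 in MEP by genotype, 340 in the difference of effects and 1610 in XMP against Runx1Δ/Δ MEP, where lanes 4 and 5 alone gave 1542. A pseudocount of 0.1 gave 80 in the difference of effects.

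No value that changed sign had been called. In MEP by genotype, Rasgrp2 was 0.08 on lanes 4 and 5 alone and -0.18 to 0.08 with a library left out, and F2rl2 -0.03 to 0.6. In the difference of effects, a pseudocount of 0.1 gave F2rl2 0.2, Clec1b 0.57 and Prkcq 0.17, and leaving out a library gave F2rl2 -0.5 to 0.13, Prkcq -0.17 to 0.08 and Fermt3 -0.21 to 0.02. Rasgrp2 in XMP against Runx1Δ/Δ GMP was -0.01 with the length trend removed and -0.07 to 0.1 with a library left out, and Gp6 in XMP against Runx1Δ/Δ MEP was -0.62 to 0.07.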

Other observations

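The authors' deposited table gives FDR p-values of Baggerley's test that differ from the limma calls for some of the 10 genes. For Clec1b in GMP by genotype the authors' deposited table gives 0.378, and for Prkcq 0.51, both called by limma. For Fermt3 in GMP by genotype the authors' deposited table gives 0.0207, which limma did not call. In MEP by genotype the authors' deposited table gives 1 for Gp6, called by limma, and 0.000475 for F2r, 0.00126 for Lat and 2.45e-07 for Fermt3, none called by limma. In XMP against Runx1Δ/Δ GMP the authors' deposited table gives 0.159 for F2rl2 and 1 for Gp6, both called by limma. In XMP against Runx1Δ/Δ MEP the authors' deposited table gives 0.921 for F2rl2, called by limma, and 0 for Fermt3, not called by limma. In Runx1wt/wt MEP against Runx1wt/wt GMP the authors' deposited table gives 0.226 for Clec1b and 0.892 for Plek, both called by limma.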
